A study of Mus musculus with 47 samples.

Results

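The 39 imprinted genes described here lie outside the Meg3 locus and were taken from a named list, of which all 39 were found in both tables of raw gene counts, among 55471 genes listed in either table. They were assigned from textbook knowledge to 11 clusters or loci and 6 genes that stand alone, with 20 genes usually expressed from the paternal allele, 18 from the maternal allele and 1, Gnas, whose isoforms differ in the allele used. RNA was sequenced from 47 samples of medullary thymic epithelial cells (mTECs) of C57BL/6 mice, sorted as DAPI- CD45- EpCAM+ Ly51- cells with high (mTEChi, the more mature cells, which hold Aire) or low (mTEClo) surface MHC class II. Adults were WT mice of 4 to 5 weeks, with 7 samples of mTEChi and 8 of mTEClo, and AireKO mice of 5 to 6 weeks, with 4 samples of either fraction. Neonates were 1 to 6 days old and gave 5 mTEChi and 3 mTEClo samples of Ctrl mice, 3 and 4 of EEDcKO mice, 3 and 3 of AireEEDdKO mice, and 3 mTEChi samples of AireKO mice. AireKO mice lack Aire in all cells. In EEDcKO mice a floxed Eed gene is deleted by Foxn1-Cre, which acts in the thymic epithelium from early in its development, so cortical cells and all mTECs are affected together, and AireEEDdKO mice carry both defects. The genotype of the neonatal Ctrl mice beyond the word Ctrl is not given in the sources used here. Several neonatal samples pooled males and females, and nothing states that replicates of a group came from separate litters, so p-values measure the spread between these samples.

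An imprinted gene is transcribed mainly from the copy inherited from one parent, and the silent copy is marked by DNA methylation laid down in the germ line, by a long noncoding RNA, or by histone marks. Imprinted genes sit in clusters in which paternally and maternally expressed genes often share a control region, and many of them act on growth of the embryo and placenta. Polycomb repressive complex 2 (PRC2), of which EED is a core subunit, deposits the repressive mark H3K27me3 and takes part in silencing at several imprinted clusters. Aire drives low and scattered transcription of many tissue-restricted genes in mTEChi. The counts do not separate the parental copies, and all mice were of 1 inbred strain, so a higher level cannot be assigned to the expressed or the silent allele.

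Library totals ran from 1602125 to 3938588 counts in adults and from 1578579 to 4817418 in neonates. Aire mRNA was at 44.4 to 114 CPM (read counts scaled to the size of each library) in neonatal mTEChi AireKO against 460.1 to 801 in Ctrl, and at 16.6 to 38.1 in adult mTEChi AireKO against 746 to 914 in WT. Eed mRNA was 10.6 to 19.7 CPM in mTEChi EEDcKO against 20.2 to 38.5 in Ctrl, 11.5 to 16.9 in mTEChi AireEEDdKO against 34.6 to 47.8 in AireKO, and 14.0 to 16.3 in mTEClo EEDcKO against 23.1 to 25.7 in Ctrl, so transcripts of the gene persisted at a lower level and counts over the whole gene do not resolve the deleted part. In mTEClo EEDcKO, Aire itself was at 60.1 to 309 CPM, below Ctrl at 322 to 329.8. Epcam, which defines the sorted cells, was present in every neonatal group at means of 181 to 315 CPM. In adults, 6 samples, all 4 mTEChi AireKO and mTEClo AireKO replicates 3 and 4, held 0 counts over 37 mitochondrial genes, against 6178 to 10339 in the other adult samples. Genotype and the absence of mitochondrial counts cannot be told apart in adult mTEChi.

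Imprinted genes were called higher more often than genes at large after loss of EED, in mTEChi with Aire, in mTEChi without Aire and in mTEClo, a description of the list for which no test was made. A log2 fold change marked ± carries a standard error, taken as its absolute value over the square root of the test's F statistic. A gene was called when edgeR's quasi-likelihood test gave an adjusted p under 0.05 with a change of at least 2-fold. In neonatal mTEChi EEDcKO against Ctrl, 12 of the 39 genes were higher and 1 was lower, where 8.48% of all 20196 genes tested were called higher and 5.4% lower (13.9% either way). In mTEChi that also lacked Aire (AireEEDdKO against AireKO), 11 were higher and 1 lower, beside 6.69% and 2.78% of all genes (9.47% either way). In mTEClo EEDcKO against Ctrl, 16 were higher and 2 lower, beside 9.51% and 6.22% (15.7% either way). These Ctrl mice were 1 to 3 days old, while EEDcKO replicates 3 and 4 were 6 and 4 days old, so age and genotype are partly mixed. By their sample numbers, replicates 3 and 4 were also deposited apart from replicates 1 and 2 and from Ctrl. Age and deposit cannot be told apart between these replicates, and whether they were prepared apart is not stated. With an age term the counts were again 16 and 2. Of the 39 genes, 38 passed the filter on low counts in neonates, Phlda2 being the exception, so the shares called higher were 31.6%, 28.9% and 42.1% of the genes tested. The median log2 fold change over those 38 genes was 0.51, 0.41 and 0.47, against -0.00, 0.03 and -0.01 over all genes tested. The 3 comparisons share no samples. The 6 genes Peg10, Sgce, Mest, Ndn, Cdkn1c and Cd81 were called higher in all 3, and 18 were called higher in at least 1. The matching shares over all genes were not taken, so these counts have no background.

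**Figure D1:**
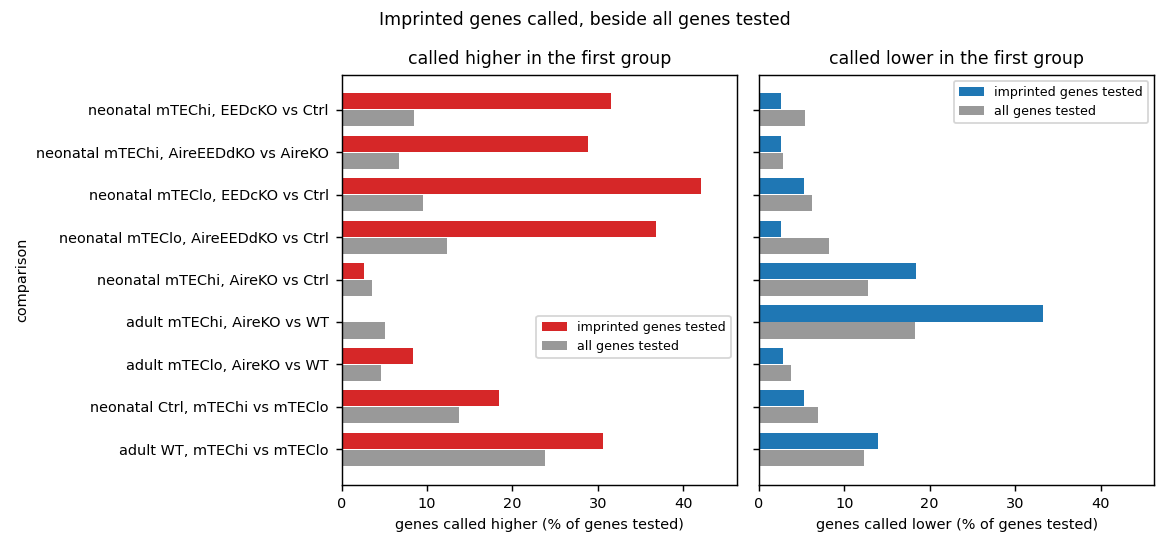
Share of the imprinted genes tested (coloured bars) and of all genes tested (grey bars) called higher (left) or lower (right) in the first-named group of each of 9 comparisons, as a percentage of genes tested. The coloured bar exceeds the grey bar for genes higher after EED loss, at 31.6% against 8.48% in mTEChi, 28.9% against 6.69% in mTEChi without Aire and 42.1% against 9.51% in mTEClo.

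Genes of both parental classes were among those higher. Of the 20 paternally expressed genes, 7 were called higher in mTEChi EEDcKO, 4 in mTEChi AireEEDdKO against AireKO and 10 in mTEClo EEDcKO. Of the 18 maternally expressed genes, 17 of which were tested, the counts were 4, 7 and 5. The paternal median log2 fold change was 0.78, 0.34 and 0.92, and the maternal median 0.26, 0.81 and 0.16. The difference between the classes was not tested. The classes follow the allele known from any tissue. In the maternal class, Slc22a3, Ppp1r9a, Ascl2, Tssc4 and Cd81 are known as imprinted in the placenta. Calcr, Ube3a, Commd1 and Trappc9 are known so in brain, and Copg2 only in part. Inpp5f of the paternal class is known as imprinted in brain. The counts do not show whether these genes are imprinted in mTECs.

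**Figure D2:**
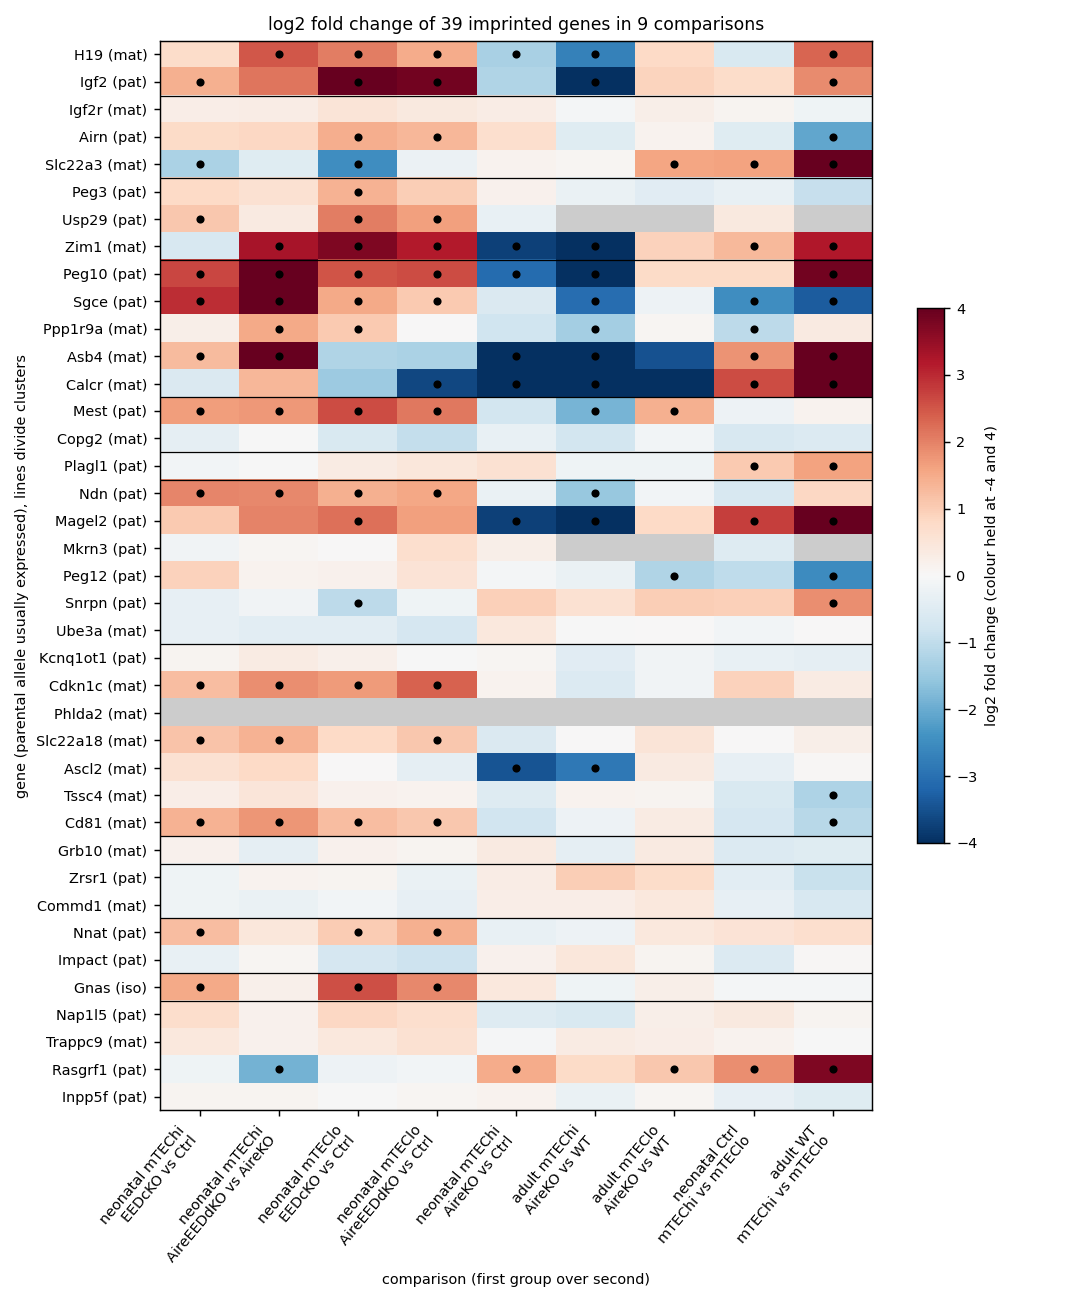
log2 fold change of the 39 genes (rows, by cluster, with the parental allele usually expressed) in 9 comparisons (columns); red is higher and blue lower in the first-named group, dots mark called genes and grey marks genes not tested. Colours are fitted values and are no bound where a group is at 0 counts; the 4 columns of EED loss at the left hold 12, 11, 16 and 14 red called genes, and the adult mTEChi AireKO column holds 12 blue ones.

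Promoter windows, the 250 bases before a RefSeq start on GRCm38.p6, were matched by symbol for 33 of the 39 genes, the remaining 6 being H19, Peg10, Sgce, Cdkn1c, Impact and Trappc9. They are shown for a pair of genes called higher in all 3 EED comparisons (Mest and Ndn) and for a pair called lower in mTEChi AireKO at both ages (Asb4 and Zim1), with each CpG, the dinucleotide that carries DNA methylation, in capitals. The pairs are not exclusive, since Mest and Ndn were also called lower in adult mTEChi AireKO, and Asb4 and Zim1 higher in some EED comparisons. Where a gene had several windows, that with the most CpG is given.
Mest (chr6:30737800-30738049, plus strand): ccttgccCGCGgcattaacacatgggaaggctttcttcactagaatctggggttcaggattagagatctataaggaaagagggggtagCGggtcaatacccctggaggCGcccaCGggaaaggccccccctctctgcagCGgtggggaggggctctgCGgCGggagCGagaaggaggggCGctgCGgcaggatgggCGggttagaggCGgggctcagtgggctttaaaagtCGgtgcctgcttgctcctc
Ndn (chr7:62348027-62348276, plus strand): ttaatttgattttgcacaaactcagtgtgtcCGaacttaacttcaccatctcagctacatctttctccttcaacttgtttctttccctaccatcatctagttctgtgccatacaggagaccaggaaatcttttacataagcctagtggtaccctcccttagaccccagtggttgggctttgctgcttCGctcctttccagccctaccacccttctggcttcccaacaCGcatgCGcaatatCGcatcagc
Asb4 (chr6:5390160-5390409, plus strand): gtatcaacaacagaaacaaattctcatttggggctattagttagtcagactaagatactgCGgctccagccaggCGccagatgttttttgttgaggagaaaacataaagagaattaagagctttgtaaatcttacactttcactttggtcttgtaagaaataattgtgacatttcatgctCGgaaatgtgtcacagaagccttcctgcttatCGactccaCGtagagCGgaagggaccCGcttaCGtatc
Zim1 (chr7:6696433-6696682, minus strand): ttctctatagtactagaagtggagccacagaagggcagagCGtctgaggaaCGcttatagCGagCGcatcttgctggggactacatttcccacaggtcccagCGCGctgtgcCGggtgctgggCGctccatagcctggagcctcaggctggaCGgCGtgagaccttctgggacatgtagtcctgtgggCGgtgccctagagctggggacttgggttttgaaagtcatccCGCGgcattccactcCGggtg
The Mest and Zim1 windows each held 14 CpG, the Ndn window 5 and the Asb4 window 8, against a median of 6 over all 32851 windows of this length. The letters TGCCGC on either strand (GCGGCA when read from the other), the core that the imprint-maintaining factor ZFP57 is known to bind when methylated, were found in the Mest and Zim1 windows. They were in windows of 6 of the 33 genes (Zim1, Calcr, Mest, Copg2, Plagl1 and Nap1l5), that is in 14.3% of 49 windows, and in 8.68% of all windows. The members' windows were richer in CpG, with a median of 11. Overlapping Mest windows, from 30737800 and from 30737803, were both counted. The difference between the shares was not tested.

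Gene positions are on GRCm38. In the Peg10/Sgce cluster on chromosome 6, both paternally expressed genes rose in all 3 comparisons. Sgce (chr6:4674350-4747207), a paternally expressed sarcoglycan, was at 1.67, 0, 1.91, 6.02 and 2.79 CPM in mTEChi Ctrl, 19.7, 27.6 and 19.03 in EEDcKO, 3.40, 2.05 and 1.12 in AireKO and 40.9, 34.4 and 31.2 in AireEEDdKO. In mTEClo it was at 16.1, 14.6 and 17.3 CPM in Ctrl and 59.8, 41.0, 40.0 and 40.8 in EEDcKO. Every sample without EED lay above every sample of its control, and the log2 fold change was 2.96 ± 0.35 (adjusted p = 3.04e-06), 4.18 ± 0.47 (adjusted p = 2.81e-06) and 1.51 ± 0.31 (adjusted p = 0.000838) in the 3 comparisons.

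Peg10 (chr6:4747306-4760517), a paternally expressed gene derived from a retrotransposon that is needed for the placenta, starts next to Sgce on the other strand. Its levels were 16.2, 20.1, 21.6, 23.3 and 53.2 CPM in mTEChi Ctrl, 123, 112 and 302 in EEDcKO, 2.72, 1.37 and 4.48 in AireKO and 503, 206 and 169 in AireEEDdKO. In mTEClo they were 22.1, 13.6 and 12.3 in Ctrl and 70.8, 76.2, 176 and 45.1 in EEDcKO. The groups did not overlap, but single samples stood far above their group, replicate 3 in mTEChi EEDcKO, replicate 1 in mTEChi AireEEDdKO and replicate 3 in mTEClo EEDcKO. The log2 fold changes were 2.68 ± 0.59 (adjusted p = 0.00147), 6.45 ± 0.98 (adjusted p = 7.67e-05) and 2.50 ± 0.73 (adjusted p = 0.0115), and the last was no longer past the threshold without mTEClo Ctrl replicate 2 (adjusted p = 0.0586).

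The maternally expressed genes of this cluster did not move together. Ppp1r9a (chr6:4902917-5165661), which encodes the actin-binding neurabin, rose in mTEChi from 14.3, 19.1 and 14.8 CPM in AireKO to 44.4, 42.4 and 48.7 in AireEEDdKO (log2 fold change 1.51 ± 0.38, adjusted p = 0.0077), while Ctrl (26.8, 24.6, 25.9, 34.8 and 25.3) and EEDcKO (36.9, 31.2 and 31.2) overlapped. In mTEClo, EEDcKO replicates 1 and 2, of 1 to 3 days, held 206 and 151 CPM, and replicates 3 and 4, of 6 and 4 days, 51.6 and 71.1, against 58.0, 57.4 and 55.8 in Ctrl of 1 to 3 days. Age and the separate deposit of replicates 3 and 4 cannot be told apart in this split. The call in mTEClo (1.06 ± 0.30, adjusted p = 0.0103) was lost without EEDcKO replicate 1 (log2 0.66), without EEDcKO replicate 2 (0.93) and without Ctrl replicate 3 (0.97), and in the fit of the compared groups alone (adjusted p = 0.0981). Asb4 and Calcr, described with Aire below, were not called higher in mTEClo.

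Mest (chr6:30723547-30748465), a paternally expressed gene of mesoderm and placenta, was at 14.5, 27.5, 16.9, 20.2 and 14.4 CPM in mTEChi Ctrl and 57.8, 45.99 and 73.0 in EEDcKO. It was at 15.6, 5.46 and 11.5 in AireKO and 29.8, 45.8 and 34.0 in AireEEDdKO. In mTEClo it was at 18.8, 20.2 and 25.7 in Ctrl and 152, 153, 111 and 109 in EEDcKO. No sample without EED overlapped its control, and the log2 fold change was 1.67 ± 0.23 (adjusted p = 1.85e-05), 1.73 ± 0.31 (adjusted p = 0.000489) and 2.62 ± 0.26 (adjusted p = 2.01e-07). Copg2, the maternally expressed partner, encodes a coatomer subunit and shares 17.8% of its exon bases with Mest on the opposite strand, which unstranded counting cannot divide. It was not called, at log2 -0.36 ± 0.13 (adjusted p = 0.0397) in mTEChi EEDcKO and -0.60 ± 0.13 (adjusted p = 0.0014) in mTEClo EEDcKO.

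In the Snrpn/Ndn cluster on chromosome 7, the paternally expressed genes divided. Ndn (chr7:62346569-62350262), which encodes necdin, a growth-restraining protein of neurons, was at 8.37, 13.8, 9.28, 9.95 and 12.3 CPM in mTEChi Ctrl, 33.2, 56.0 and 33.4 in EEDcKO, 9.51, 8.88 and 8.69 in AireKO and 36.2, 29.8 and 35.3 in AireEEDdKO. In mTEClo it was at 14.7, 13.2 and 22.9 in Ctrl and 42.4, 43.8, 42.3 and 48.6 in EEDcKO. The groups did not overlap, with log2 fold changes of 1.95 ± 0.19 (adjusted p = 4.63e-07), 1.91 ± 0.25 (adjusted p = 1.48e-05) and 1.42 ± 0.21 (adjusted p = 3.17e-05).

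Magel2 (chr7:62377010-62381640), a ubiquitin ligase regulator gene near Ndn, was called higher only in mTEClo, from 0, 1.39 and 1.67 to 2.34, 7.84, 2.75 and 5.26 CPM (2.2 ± 0.72, adjusted p = 0.0234), on 7 counts in Ctrl. That call was lost without Ctrl replicate 1 (adjusted p = 0.161) or EEDcKO replicate 2 (0.0653). Snrpn (chr7:59982495-60140219), which encodes a splicing protein, went the other way in mTEClo, from 15.4, 16.7 and 8.93 to 5.68, 7.48, 6.56 and 7.01 CPM without overlap (-1.06 ± 0.25, adjusted p = 0.00275), and the call was lost without Ctrl replicate 2 (log2 -0.97). Its counts are uncertain, because 34.1% of its exon bases are shared with other annotated genes, and 1 of them, Gm38393, held 3026 neonatal counts against 1616 for Snrpn. Mkrn3, Peg12 and the maternally expressed Ube3a, a ubiquitin ligase, were not called in the EED comparisons.

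Ube3a itself was at 213, 209.8 and 259 CPM in mTEClo Ctrl and 187, 179, 144 and 168 in EEDcKO, with log2 -0.42 ± 0.14 (adjusted p = 0.0238), under the 2-fold limit. Of its exon bases, 27.3% are shared with antisense genes.

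The Kcnq1ot1/Cdkn1c cluster on chromosome 7 held a pair of genes of the maternal class that rose in all 3 comparisons. They were Cdkn1c and Cd81, the latter known as imprinted in the placenta. Cdkn1c (chr7:143458339-143461050), which encodes the cell-cycle inhibitor p57, was at 61.9, 91.7, 46.9, 42.7 and 69.0 CPM in mTEChi Ctrl, 209, 126 and 103 in EEDcKO, 70.7, 60.8 and 72.3 in AireKO and 307, 248 and 195 in AireEEDdKO. In mTEClo it was at 38.5, 25.7 and 34.0 in Ctrl and 87.5, 82.3, 120.3 and 134 in EEDcKO. Groups did not overlap, with log2 fold changes of 1.23 ± 0.24 (adjusted p = 0.000584), 1.87 ± 0.28 (adjusted p = 7.99e-05) and 1.70 ± 0.28 (adjusted p = 0.000106), the first falling under 2-fold without EEDcKO replicate 1 (log2 0.91).

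Cd81 (chr7:143052739-143067934), a tetraspanin of the cell surface, was at 44.1, 32.1, 44.2, 49.2 and 54.8 CPM in mTEChi Ctrl and 123, 117 and 117 in EEDcKO. It was at 23.8, 24.6 and 30.5 in AireKO and 87.6, 83.6 and 99.6 in AireEEDdKO, and in mTEClo at 67.0, 76.5 and 74.2 in Ctrl and 184, 191, 153 and 160.4 in EEDcKO. The groups did not overlap and the spread within groups was small, with log2 fold changes of 1.39 ± 0.13 (adjusted p = 1.95e-07), 1.75 ± 0.16 (adjusted p = 2.5e-07) and 1.25 ± 0.14 (adjusted p = 8.9e-07).

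Slc22a18 (chr7:143473736-143499334), a transporter gene next to Cdkn1c, rose in both mTEChi comparisons, from 7.25, 9.17, 10.6, 11.8 and 11.6 CPM in Ctrl to 20.3, 22.3 and 25.6 in EEDcKO (1.14 ± 0.22, adjusted p = 0.000384) and from 8.83, 4.10 and 7.57 in AireKO to 18.1, 18.9 and 17.8 in AireEEDdKO (1.39 ± 0.28, adjusted p = 0.00144). In mTEClo the log2 fold change was 0.79 ± 0.24 (adjusted p = 0.0148), under the 2-fold limit. The paternally expressed noncoding RNA of the cluster, Kcnq1ot1 (chr7:143203458-143296549), whose transcription silences its maternally expressed neighbours on the paternal copy, was not called, with log2 fold changes of 0.12 ± 0.10 (adjusted p = 0.388), 0.33 ± 0.12 (adjusted p = 0.057) and 0.21 ± 0.11 (adjusted p = 0.158). It lies within Kcnq1 on the other strand and was at 586, 599, 475, 496 and 465 CPM in mTEChi Ctrl and 639.5, 540.4 and 533 in EEDcKO. Ascl2 and Tssc4 were not called in these comparisons, and Phlda2, below the filter, held 0.558, 1.15, 1.64, 0.786 and 2.79 CPM in mTEChi Ctrl and 3.07, 6.94 and 5.93 in EEDcKO.

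**Figure D3:**
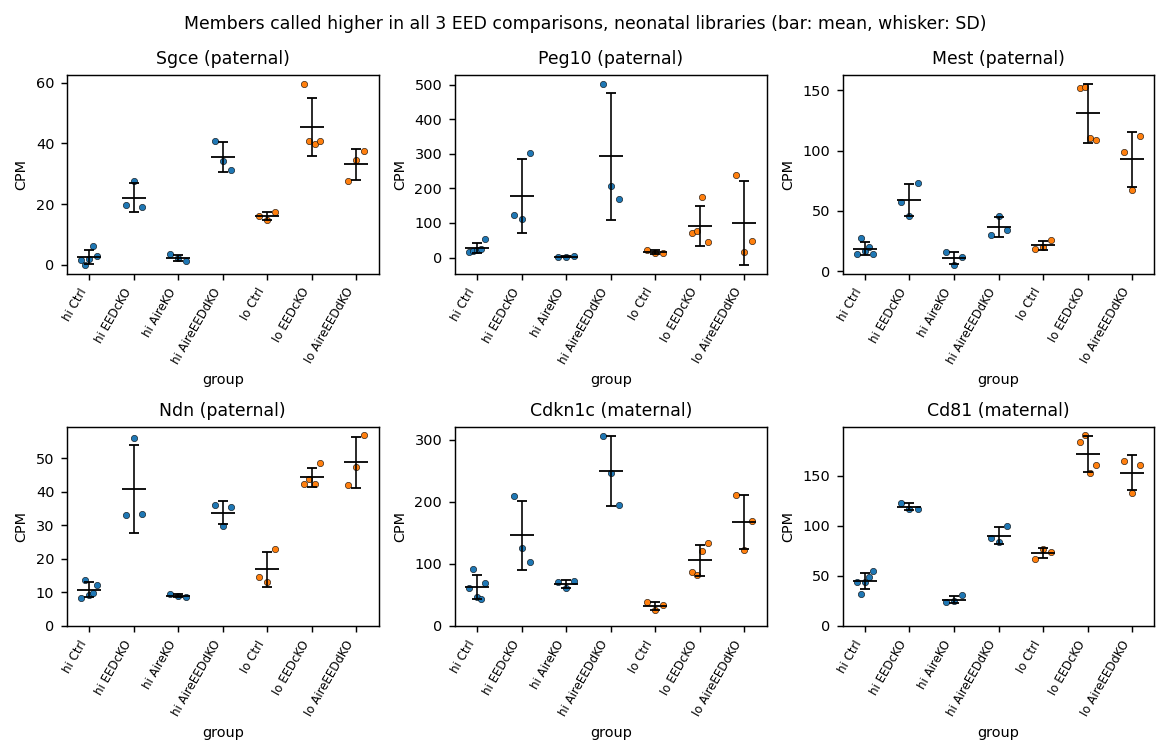
CPM of Sgce, Peg10, Mest, Ndn, Cdkn1c and Cd81 in each neonatal library (points; blue, mTEChi; orange, mTEClo) with the mean and SD of each group. In every panel the EEDcKO points lie above the Ctrl points of the same fraction and the mTEChi AireEEDdKO points above the AireKO points, and single Peg10 libraries reach 302 and 503 CPM.

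The H19/Igf2 pair rose together in mTEClo. H19 (chr7:142575529-142578143), a maternally expressed noncoding RNA, was at 50.2, 67.5 and 144 CPM in mTEClo Ctrl and 415, 425, 263 and 322 in EEDcKO. Igf2 (chr7:142650766-142666816), the paternally expressed fetal growth factor, was at 2.01, 2.44 and 4.46 in Ctrl and 50.4, 59.9, 34.0 and 44.0 in EEDcKO. Neither pair of groups overlapped, with log2 fold changes of 2.05 ± 0.40 (adjusted p = 0.000489) for H19 and 4.05 ± 0.57 (adjusted p = 1.75e-05) for Igf2. On one chromosome copy the pair is normally exclusive, H19 being transcribed from the maternal and Igf2 from the paternal copy, and the counts do not show from which copy the added RNA came.

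In mTEChi EEDcKO the fitted changes of this pair were smaller than in mTEClo EEDcKO, though neither gene passed the test of a difference between the fractions given below. H19 was at 35.7, 67.0, 60.0, 36.4 and 78.5 CPM in Ctrl and 73.7, 106 and 97.0 in EEDcKO, with overlap and no call (0.74 ± 0.37, adjusted p = 0.13), and rose from 51.0, 4.78 and 16.2 in AireKO to 142, 96.8 and 143 in AireEEDdKO (2.47 ± 0.48, adjusted p = 0.000853). Igf2 was called higher in EEDcKO, 14.7, 9.76 and 14.7 against 3.90, 6.87, 6.00, 3.14 and 4.18 CPM (1.44 ± 0.49, adjusted p = 0.0284), and missed the threshold between AireKO, 8.15, 0 and 0, and AireEEDdKO, 7.01, 9.74 and 9.86 (2.13 ± 0.76, adjusted p = 0.0548). The Igf2 call in EEDcKO was lost without Ctrl replicate 4 or 5 (adjusted p = 0.0732 and 0.0541) and without EEDcKO replicate 1 or 3 (0.0567 and 0.0959). Of the Igf2 exon bases, 64.5% are shared with Gm49394 and the antisense gene Igf2os.

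In the Peg3 cluster, all 3 genes rose in mTEClo. Peg3 (chr7:6703892-6730431), a paternally expressed zinc-finger gene, was at 195, 179 and 261 CPM in Ctrl and 648, 564, 464 and 521 in EEDcKO, without overlap (1.38 ± 0.15, adjusted p = 7.13e-07). Usp29 (chr7:6730578-6967219), a deubiquitinase gene that starts next to Peg3 on the other strand, was at 2.68, 4.52 and 3.91 in Ctrl and 20.4, 17.1, 11.4 and 12.8 in EEDcKO, also without overlap (2.04 ± 0.42, adjusted p = 0.000814). The maternally expressed Zim1 (chr7:6671269-6696450), another zinc-finger gene, was at 1.68, 6.61 and 1.67 in Ctrl and 50.8, 47.4, 44.8 and 43.5 in EEDcKO, the largest fitted change among these 3 genes, without overlap (3.73 ± 0.45, adjusted p = 2.78e-06).

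In mTEChi EEDcKO only Usp29 of this cluster was called. Peg3 was at 161, 143, 169, 182 and 193 CPM in Ctrl and 322, 254 and 308 in EEDcKO without overlap, a change under 2-fold (0.79 ± 0.14, adjusted p = 0.000188). Usp29 was called in EEDcKO, 4.92, 6.72 and 18.1 against 5.58, 1.15, 5.73, 4.97 and 5.57 CPM (1.08 ± 0.37, adjusted p = 0.0286), but rested on EEDcKO replicate 3, without which the log2 fold change was 0.34 (adjusted p = 0.558). It was also lost without Ctrl replicate 2 (0.0551) or replicate 4 (0.0509), in the fit of the compared groups alone (0.0823), and with an age term (log2 0.96) or a prior count of 2 (0.99). Zim1 was not called in mTEChi EEDcKO, 1.84, 7.59 and 5.30 CPM against 12.3, 7.45, 9.55, 6.81 and 7.43 in Ctrl (-0.64 ± 0.43, adjusted p = 0.26).

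Within the Igf2r/Airn cluster on chromosome 17, the paternally expressed antisense RNA Airn (chr17:12741311-12860136), which silences Igf2r on the paternal copy, rose in mTEClo from 18.8, 25.7 and 30.1 to 75.5, 65.9, 63.0 and 66.6 CPM without overlap (1.46 ± 0.17, adjusted p = 2.05e-06). Igf2r, the maternally expressed receptor that clears IGF2, was at 336, 332 and 281 CPM in Ctrl and 498, 466, 399 and 441 in EEDcKO, a change under 2-fold (0.51 ± 0.10, adjusted p = 0.000826).

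Slc22a3 (chr17:12418960-12507704), an organic cation transporter imprinted in the placenta, fell in both fractions. It was at 12.7, 7.65 and 6.14 CPM in mTEClo Ctrl and 1.34, 1.43, 2.33 and 1.00 in EEDcKO, without overlap (-2.50 ± 0.54, adjusted p = 0.00133). In mTEChi it was at 35.1, 32.6, 27.3, 22.3 and 22.5 in Ctrl and 22.1, 7.38 and 8.11 in EEDcKO (-1.26 ± 0.41, adjusted p = 0.0209), a call lost without EEDcKO replicate 2 (adjusted p = 0.147) or 3 (0.111).

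Of the genes outside these clusters, Nnat and Gnas rose, Rasgrf1 is described with Aire below, and 8 were not called in the EED comparisons. Nnat (chr2:157560078-157562522), a paternally expressed proteolipid gene, was at 33.5, 28.1, 34.6, 27.0 and 43.2 CPM in mTEChi Ctrl and 68.2, 76.6 and 93.3 in EEDcKO, without overlap (1.25 ± 0.20, adjusted p = 6.77e-05). In mTEClo it was at 21.4, 28.5 and 18.4 in Ctrl and 32.4, 37.4, 53.3 and 60.8 in EEDcKO, at the 2-fold limit (1.01 ± 0.23, adjusted p = 0.0018), and it lay just below that limit (log2 0.82 to 0.93) without Ctrl replicate 1 or 3 or EEDcKO replicate 3 or 4. It was also under the limit with RLE size factors (log2 0.96), with library size alone (0.99), without the filter on low counts (0.98), with DESeq2 (0.96), in the fit of the compared groups alone (0.99) and with a prior count of 2 (0.99). Between AireKO and AireEEDdKO Nnat was not called (0.47 ± 0.25, adjusted p = 0.219). Gnas (chr2:174284320-174346744), which encodes the stimulatory G protein and related products, was at 6.14, 7.45, 3.82, 4.97 and 6.74 CPM in mTEChi Ctrl and 11.1, 16.1 and 20.9 in EEDcKO (1.52 ± 0.27, adjusted p = 0.000217), and at 6.37, 6.96 and 4.46 in mTEClo Ctrl and 37.4, 51.0, 34.5 and 23.8 in EEDcKO (2.58 ± 0.29, adjusted p = 1.17e-06).

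For Gnas both pairs of groups were apart, while AireKO (8.83, 8.88 and 6.16) and AireEEDdKO (5.84, 8.59 and 11.4) overlapped (0.22 ± 0.34, adjusted p = 0.732). Of its exon bases, 22.0% are shared with Nespas and Gm20721, both on the other strand, so reads there may not have been counted for Gnas. The 8 uncalled genes were Plagl1, Grb10, Zrsr1, Commd1, Impact, Nap1l5, Trappc9 and Inpp5f.

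When both EED and Aire were absent, 14 genes were higher and 1 lower in mTEClo against the same Ctrl samples, beside 12.4% of all genes called higher and 8.2% lower (20.6% either way). H19 (248, 166 and 299.6 CPM), Igf2 (45.99, 19.8 and 59.0), Zim1 (18.8, 27.1 and 49.6) and Airn (55.7, 64.5 and 65.2) were among those higher. Calcr was the gene lower, 0.313, 0.611 and 0.459 CPM against 5.36, 7.30 and 6.70 in Ctrl (-3.64 ± 0.85, adjusted p = 0.00179). Peg10 was uneven, 239, 15.9 and 46.6 CPM, and its call was lost without replicate 1 (log2 0.93). H19 lost its call without Ctrl replicate 1 (adjusted p = 0.0602). The AireEEDdKO mice were 4 to 6 days old and the Ctrl mice 1 to 3 days, so age and genotype cannot be told apart here. By their sample numbers, these AireEEDdKO samples were also deposited apart from Ctrl. Because this comparison shares its Ctrl samples with mTEClo EEDcKO, it is no independent repeat.

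Markers of other cell types moved with EED loss. Of 13 mesenchyme markers, 6 were called higher in mTEChi EEDcKO and 0 lower, 6 and 0 in AireEEDdKO against AireKO, and 9 and 1 in mTEClo EEDcKO. Their summed level was 588 to 642 CPM in mTEChi Ctrl and 1097 to 1355 in EEDcKO. Without Aire it was 516 to 582 with EED and 963 to 1277 without EED. In mTEClo it was 531 to 664 in Ctrl and 1466 to 1980.0 in EEDcKO. No mesenchyme marker was at 0 in any neonatal Ctrl or EEDcKO sample, and Pdgfra was at 0 in all 3 mTEChi AireKO samples. Of 7 markers of cortical thymic epithelial cells (cTECs), 7 were called lower in mTEClo EEDcKO, with a summed level of 266 to 984 against 2169 to 3305 CPM, and 1, Ccl25, was lower in mTEChi EEDcKO. Of 10 muscle genes expressed by the muscle-like mTEC mimetic cells, 8 were higher and 0 lower in AireEEDdKO than in AireKO, and 3 were higher and 1, Ttn, was lower in mTEChi EEDcKO and again in mTEClo EEDcKO. Their summed level was 1053 to 2657 CPM in mTEChi EEDcKO against 2529 to 4873 in Ctrl, and 428 to 994 in mTEClo EEDcKO against 1080.0 to 1924. Between mTEChi AireEEDdKO and AireKO the summed levels overlapped, at 4123 to 7654 and 4964 to 7557 CPM. Of 9 myeloid markers, 4 were lower in mTEChi EEDcKO and 2 in mTEClo EEDcKO, with 0 higher in either. Of 9 neuroendocrine mimetic markers, 2 were higher and 4 lower in mTEClo EEDcKO. The part of these cells in the imprinted gene values was not tested, and in sorted bulk samples fewer cells of a type and less RNA per cell cannot be told apart.

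**Figure D4:**
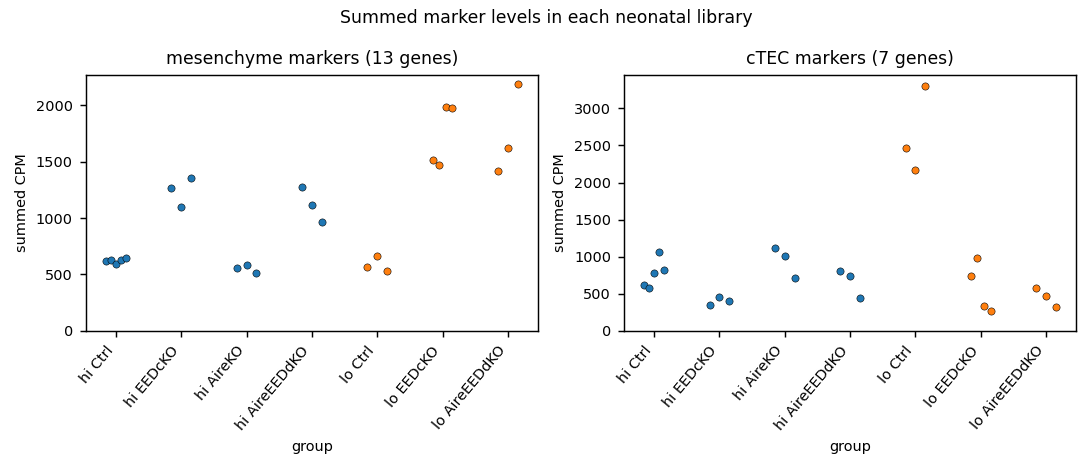
Summed CPM of 13 mesenchyme markers (left) and 7 cTEC markers (right) in each neonatal library, by group (blue, mTEChi; orange, mTEClo). Every sample without EED lies above its control for the mesenchyme markers, and the mTEClo Ctrl samples at 2169 to 3305 CPM lie above all others for the cTEC markers.

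Some imprinted genes fell with loss of Aire in mTEChi. In adult mTEChi AireKO against WT, 12 of the 39 genes were lower and 0 higher (36 tested), beside 18.3% and 5.09% of all 19310 genes (23.4% either way). Beside the 0 called higher, 5 genes (Snrpn, Zrsr1, Impact, Trappc9 and Rasgrf1) had a positive log2 fold change at an unadjusted p under 0.05, each also at an adjusted p under 0.05 with a change under 2-fold. DESeq2 also called 0 higher, while 1 was called higher with an age term, without the filter on low counts and in several left-out fits. In neonatal mTEChi AireKO against Ctrl, 7 were lower and 1 higher (38 tested), beside 12.8% and 3.56% of all genes (16.4% either way). The AireKO mice there were 4 to 6 days old and the Ctrl mice 1 to 6 days. With an age term the counts were again 7 and 1. Scaling by library size alone shifted the median of all genes by -0.21 on the log2 scale in neonates and -0.12 in adults, and the share of all calls that were higher went from 21.7% to 10.7% in neonates. All 7 genes lower in neonates were among the 12 lower in adults: H19, Zim1, Peg10, Asb4, Calcr, Magel2 and Ascl2. How many of all genes were lower at both ages was not counted, so this overlap has no background. The remaining 5 in adults were Igf2, Sgce, Ppp1r9a, Mest and Ndn. Of the 12 mesenchyme markers tested in adults, 8 were lower in mTEChi AireKO and 1 higher, with a summed level of 282 to 362 against 434 to 597 CPM, and in neonates 4 of 13 were lower and 2 higher.

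Markers of other cells moved with Aire loss too. In adult mTEChi AireKO, 5 of 6 thymocyte markers tested were lower and 0 higher, with a summed level of 43.9 to 56.1 against 84.9 to 119 CPM in WT. Of the myeloid markers 5 were lower and 2 higher, of 7 endothelium markers tested 3 and 0, of 9 muscle mimetic markers tested 4 and 1, of the neuroendocrine mimetic markers 4 and 0, and of 8 tuft mimetic markers 2 and 0. In neonatal mTEChi AireKO, 1 of 7 thymocyte markers tested was lower, 4 myeloid markers were lower and 1 higher, 2 endothelium and 2 muscle mimetic markers were lower, 3 neuroendocrine mimetic markers were lower and 2 higher, and 4 of 7 tuft mimetic markers tested were lower. Of 11 mTEC markers, Aire was the 1 lower at either age, and Cd80 was higher in neonates. The part of these cells in the imprinted gene values was not tested.

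Asb4, Calcr and Magel2 were near absent without Aire. Asb4 (chr6:5383386-5433022), a maternally expressed ubiquitin ligase adaptor, was at 10.2 to 22.3 (median 15.6) CPM in adult mTEChi WT and 0, 0, 0.333 and 0 in AireKO. In neonates it was at 20.1, 24.1, 16.1, 16.2 and 9.06 in Ctrl and at 0 counts in all 3 AireKO samples. Against 1 count over the adult AireKO samples the ratio was 160.0 (95% interval 28.5 to 6350.0), and against a floor of 3 counts over the neonatal AireKO group Asb4 was at least 33.7-fold higher in Ctrl (adjusted p = 1.05e-08 and 6.74e-06).

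Calcr (chr6:3685680-3764714), the calcitonin receptor, maternally expressed in brain, was at 33.1 to 46.2 (median 41.5) CPM in adult mTEChi WT and 0.857, 1.58, 0.665 and 1.22 in AireKO (-5.18 ± 0.46, adjusted p = 1.15e-09). In neonates it was at 32.4, 55.0, 41.7, 33.5 and 37.2 in Ctrl and 0, 5.46 and 1.40 in AireKO (-4.24 ± 0.64, adjusted p = 6.14e-05). Magel2 was at 4.86 to 16.6 (median 8.75) CPM in adult WT and 0, 0.395, 0 and 0.406 in AireKO, 188 against 2 counts, a ratio of 52.0 (95% interval 14.2 to 432).

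In neonates Magel2 was at 7.25, 12.6, 4.91, 2.62 and 6.97 CPM in Ctrl and 0.679, 0 and 0.560 in AireKO, 93 against 3 counts, a ratio of 13.2 (95% interval 4.36 to 64.9). All 3 genes had groups that did not overlap at either age. Intervals of such ratios are 95% Clopper-Pearson intervals over pooled counts and cover counting error only.

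Zim1 and Peg10 fell likewise. Zim1 was at 2.43 to 11.9 (median 5.09) CPM in adult mTEChi WT and 0, 0.395, 0 and 0 in AireKO, a ratio of 64.1 (95% interval 11.3 to 2550.0), and in neonates at 0, 0.683 and 0.841 in AireKO, below every Ctrl sample (-3.73 ± 0.71, adjusted p = 0.000573). Peg10 was at 9.71 to 51.2 (median 26.6) CPM in adult WT and 0.428, 0.790, 0 and 0.811 in AireKO (-5.93 ± 0.59, adjusted p = 3.2e-09), and in neonates fell by 3.07 on the log2 scale (adjusted p = 0.0265), a call lost without Ctrl replicate 5 or any 1 AireKO sample (adjusted p from 0.0673 to 0.0866). Ascl2, a placental transcription factor gene, was at 1.77 to 6.25 (median 3.64) CPM in adult WT and 0.857, 0.395, 0.333 and 0.406 in AireKO (-2.86 ± 0.54, adjusted p = 6.83e-05), and in neonates 33 counts over Ctrl stood against 1 over AireKO, a ratio of 14.0 (95% interval 2.34 to 570.0).

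The H19/Igf2 pair also lost expression in adults. H19 was at 18.6 to 54.6 (median 42.5) CPM in mTEChi WT and 0.428, 0.395, 18.97 and 1.22 in AireKO, with AireKO replicate 3 within the WT range (-2.71 ± 0.77, adjusted p = 0.00394). Igf2 was at 2.43 to 7.79 (median 4.82) in WT and at 0 counts in all 4 AireKO samples, so that WT was at least 16.4-fold higher against a floor of 3 counts over the group (adjusted p = 3.47e-06). The neonatal H19 call, between groups that overlapped (-1.28 ± 0.45, adjusted p = 0.0341), was lost without Ctrl replicate 2 or 5 (adjusted p = 0.0538 and 0.0806) and without AireKO replicate 2 or 3 (0.16 and 0.158).

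In adult mTEChi, Mest was at 6.02 to 15.2 (median 10.8) CPM in WT and 3.85, 2.37, 2.33 and 2.84 in AireKO (-1.87 ± 0.27, adjusted p = 1.44e-06). Ndn was at 5.46 to 15.6 (median 9.58) in WT and 4.28, 5.92, 1.33 and 2.84 in AireKO, with overlap (-1.52 ± 0.33, adjusted p = 0.000262), Ppp1r9a at 11.9 to 24.5 (median 21.6) and 6.85, 6.71, 9.32 and 9.33 (-1.35 ± 0.20, adjusted p = 2.38e-06), and Sgce held only 21 counts over WT and 1 over AireKO, a ratio of 11.6 (95% interval 1.87 to 480.0). With a term for the samples without mitochondrial counts, 9 genes were lower and 2 higher in adult mTEChi. Of the 12 calls, 5 were not made, those of H19 (log2 -0.99, adjusted p = 0.6), Ndn (-0.94, adjusted p = 0.229), Magel2 (-4.89, adjusted p = 0.0502), Asb4 (log2 -6.78) and Calcr (log2 -5.18). The mTEClo AireKO samples held 0 counts of Asb4 and Calcr, and these fitted values are no bound. Within mTEChi this term equals genotype. It was fitted only from mTEClo AireKO replicates 1 and 2, of 5 weeks, against 3 and 4, of 6 weeks. These counts therefore cannot separate genotype from the missing mitochondrial counts in mTEChi.

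Rasgrf1 (chr9:89909908-90026977), a paternally expressed exchange factor for Ras, went against this direction. In neonatal mTEChi it was at 41.3, 28.6, 30.6, 31.9 and 30.7 CPM in Ctrl and 80.2, 107 and 86.3 in AireKO, without overlap (1.48 ± 0.28, adjusted p = 0.00054), and at 33.9, 30.4 and 11.1 in AireEEDdKO, below AireKO (-1.90 ± 0.34, adjusted p = 0.000448). In adult mTEChi it was at 38.6 to 50.6 (median 43.5) in WT and 88.7, 88.5, 60.2 and 63.3 in AireKO, without overlap but under 2-fold (0.76 ± 0.17, adjusted p = 0.000479). The EED comparison and the Aire comparison share the AireKO samples here. EEDcKO and Ctrl overlapped (-0.16 ± 0.30, adjusted p = 0.72).

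In adult mTEClo, 3 genes were higher in AireKO and 1 lower, beside 4.61% and 3.7% of all genes (8.31% either way). Mest was at 7.84 to 12.0 (median 8.93) CPM in WT and 31.6, 30.5, 21.01 and 21.1 in AireKO, without overlap (1.42 ± 0.18, adjusted p = 1.58e-06), opposite in direction to adult mTEChi. Slc22a3 was at 0.249 to 2.75 (median 1.12) in WT and 6.00, 8.09, 2.10 and 2.208 in AireKO, with overlap (1.59 ± 0.40, adjusted p = 0.004). Rasgrf1 (1.08 ± 0.31, adjusted p = 0.00985) and Peg12 (-1.21 ± 0.43, adjusted p = 0.0409) were less stable. Rasgrf1 fell under 2-fold without WT replicate 7 (log2 0.97), WT replicate 8 (0.96) or AireKO replicate 1 (0.70). Peg12 was lost without AireKO replicate 2 or 4 (adjusted p = 0.0522 and 0.228), and in 8 other alternatives. Of the 7 cTEC markers, 5 were higher in adult mTEClo AireKO and 0 lower, with a summed level of 498 to 701 against 290.2 to 365 CPM, and 3 muscle mimetic and 3 myeloid markers were higher. The part of these cells in the values was not tested.

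Among the genes lower without Aire, Zim1 and Asb4 were higher in AireEEDdKO than in AireKO. In neonatal mTEChi without Aire, where Zim1 was at 0, 0.683 and 0.841 CPM, it was at 11.7, 4.01 and 4.14 in AireEEDdKO (3.29 ± 0.81, adjusted p = 0.00639). Asb4, at 0 counts in AireKO, was at 7.01, 8.59 and 6.36 in AireEEDdKO, at least 15.4-fold above the floor and below the lowest Ctrl sample. With Aire present, Asb4 was at 40.5, 25.4 and 54.3 CPM in EEDcKO, above every Ctrl sample (1.26 ± 0.33, adjusted p = 0.00655), a call lost without EEDcKO replicate 3 (log2 0.96). Calcr stayed low in AireEEDdKO, 9.34, 4.01 and 3.18 CPM against 0, 5.46 and 1.40 in AireKO, with overlap (1.32 ± 0.81, adjusted p = 0.299).

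Whether the EED effect differed with Aire was tested as an interaction in neonatal mTEChi, and 2 of the 39 genes were called, Zim1 and Asb4, both with a larger EED effect without Aire, beside 0.807% of all genes called higher and 0.446% lower (1.25% either way). Higher calls were 64.4% of all calls, and 77.0% with library size alone. For Zim1 the difference was 3.93 ± 0.92 (adjusted p = 0.0356) on the log2 scale, on 4 counts in AireKO. For Asb4 the adjusted p was 0.0379, and its fitted difference is no bound because AireKO was at 0. When 1 of the 14 samples was left out in turn, the adjusted p ran from 0.0242 to 0.107 for Zim1, which lost its call 8 times, and from 0.0273 to 0.165 for Asb4, which lost it 9 times. For the other genes no difference passed the threshold, among them Peg10 (3.77 ± 1.21, adjusted p = 0.111), Rasgrf1 (-1.74 ± 0.45, adjusted p = 0.0501) and Gnas (-1.30 ± 0.44, adjusted p = 0.129).

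Whether the EED effect differed between mTEChi and mTEClo was tested in the same way, and 2 genes were called, beside 0.614% of all genes higher and 0.97% lower (1.58% either way). Zim1 had the smaller effect in mTEChi (-4.37 ± 0.62, adjusted p = 0.000449), a call kept when any 1 sample was left out. Asb4 had the larger effect in mTEChi (2.45 ± 0.61, adjusted p = 0.0373), being at 8.04, 1.74 and 4.46 CPM in mTEClo Ctrl and 2.34, 2.49, 2.54 and 1.00 in EEDcKO, with adjusted p from 0.0143 to 0.263 when 1 of the 15 samples was left out in turn, which ended the call 8 times. Igf2, which changed more in mTEClo by its fitted values, did not pass (-2.61 ± 0.78, adjusted p = 0.0873).

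Between the fractions of control mice, a group of imprinted genes was higher in the mature cells. In adult WT, 11 of the 39 genes were higher in mTEChi than in mTEClo and 5 lower, beside 23.8% and 12.3% of all genes (36% either way). In neonatal Ctrl, 7 were higher and 2 lower, beside 13.8% and 6.92% (20.7% either way). All 7 genes higher in neonatal mTEChi were among the 11 in adults: Slc22a3, Zim1, Asb4, Calcr, Plagl1, Magel2 and Rasgrf1. As shares of the genes tested, 30.6% in adults and 18.4% in neonates were higher, not far from the shares of all genes. The overlap between the ages was not counted over all genes. Of the marker lists in adults, all 9 myeloid and 5 of 6 thymocyte markers tested were higher in mTEChi and all 8 tuft mimetic markers lower, and in neonates 4 myeloid, 3 of 7 thymocyte and 6 of 9 neuroendocrine mimetic markers tested were higher and 5 of 7 cTEC markers lower. The part of these cells in the values was not tested. The neonatal Zim1 call (1.29 ± 0.48, adjusted p = 0.0373) was lost without mTEClo Ctrl replicate 1 or 3 or mTEChi Ctrl replicate 1 or 3 (adjusted p from 0.0596 to 0.184), and Plagl1 fell just under 2-fold without mTEChi Ctrl replicate 2 (log2 0.98).

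Slc22a3 had 0.249 to 2.75 (median 1.12) CPM in adult mTEClo WT and 36.4 to 53.5 (median 42.8) in mTEChi WT (5.07 ± 0.23, adjusted p = 3.5e-17). Calcr was at 0 to 3.12 (median 0) CPM in adult mTEClo WT (5.72 ± 0.35, adjusted p = 1.56e-13), and Rasgrf1 at 1.33 to 5.12 (median 3.24) (3.75 ± 0.20, adjusted p = 1.02e-15), all far below the mTEChi samples given above. Plagl1, a paternally expressed zinc-finger gene, was at 123 to 182 (median 141) in adult mTEClo WT and 336 to 577 (median 426) in mTEChi WT (1.60 ± 0.10, adjusted p = 2.62e-14). None of these pairs overlapped in adults.

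In the other direction, Sgce was at 5.68 to 17.6 (median 11.3) CPM in adult mTEClo WT and 0.607 to 1.91 (median 1.06) in mTEChi WT (-3.34 ± 0.29, adjusted p = 2.61e-11), and fell in neonates too (-2.47 ± 0.36, adjusted p = 2.71e-05). Its neighbour Peg10 was higher in adult mTEChi, at 0.253 to 4.27 (median 2.25) CPM in mTEClo WT (3.87 ± 0.34, adjusted p = 3.04e-11), so that this divergent paternal pair was opposed between the fractions. Airn was at 45.0 to 54.0 (median 50.9) in adult mTEClo WT and 9.21 to 15.6 (median 11.7) in mTEChi WT, without overlap (-2.08 ± 0.11, adjusted p = 1.59e-15). The other genes lower in adult mTEChi were Peg12 (-2.50 ± 0.43, adjusted p = 6.95e-06), Tssc4 (-1.22 ± 0.12, adjusted p = 4.85e-10) and Cd81 (-1.10 ± 0.10, adjusted p = 3.89e-11). In neonates Ppp1r9a was at the 2-fold limit (-1.04 ± 0.30, adjusted p = 0.00871), and it was under that limit with an age term (log2 -0.92), with RLE size factors (-0.99), with library size alone (-0.99), without the filter on low counts (-0.99) and with DESeq2 (-0.99).

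**Figure D5:**
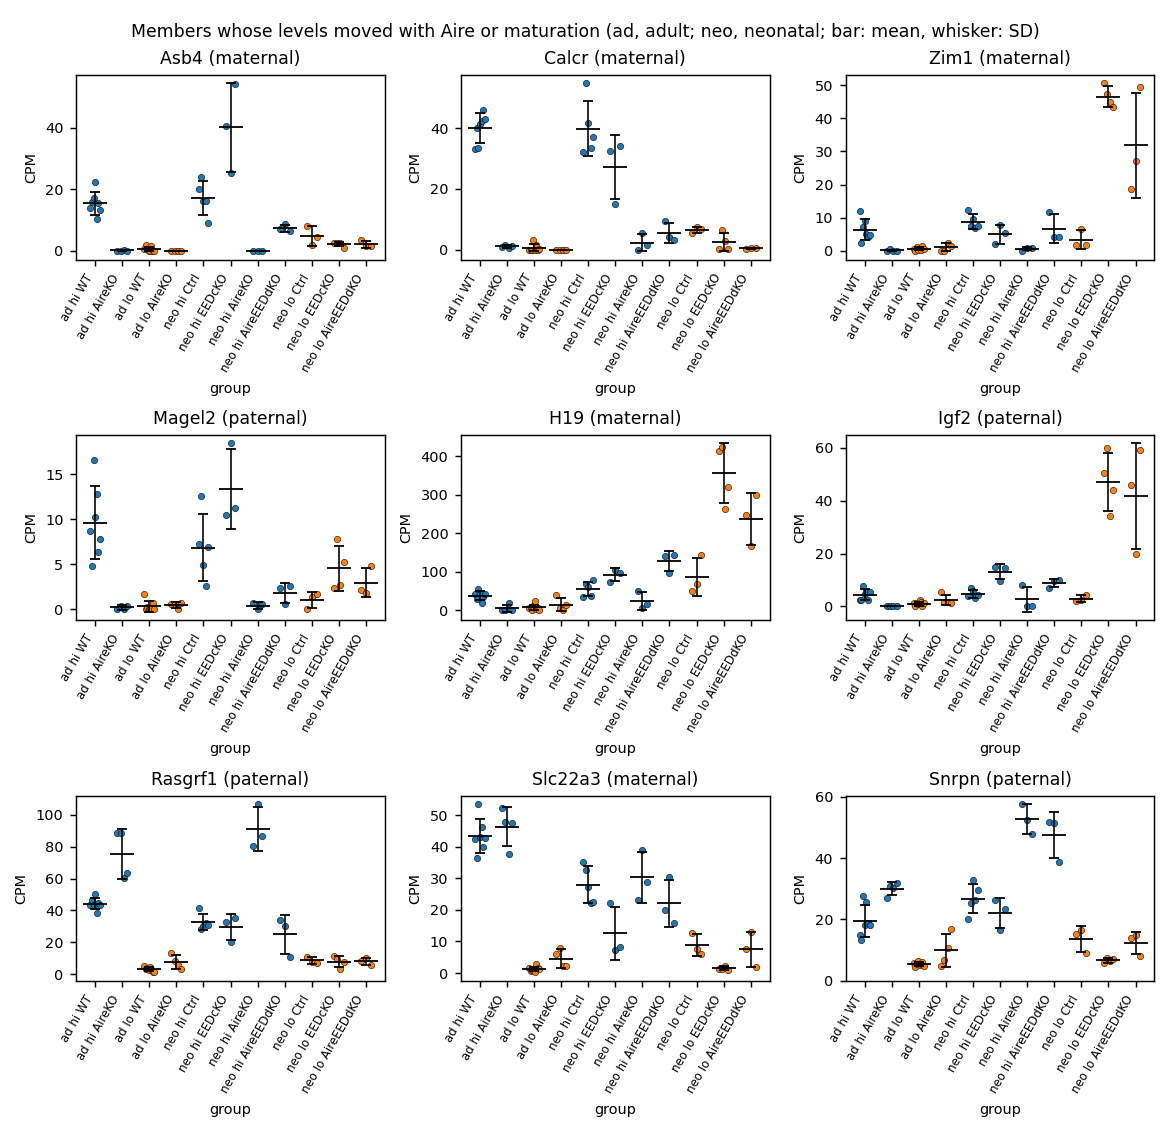
CPM of 9 genes in each library (points; blue, mTEChi; orange, mTEClo) of the 11 groups, with the mean and SD of each group. Asb4, Calcr, Zim1 and Magel2 are near 0 in both mTEChi AireKO groups, H19, Igf2 and Zim1 peak in neonatal mTEClo EEDcKO, and Rasgrf1 is highest in neonatal mTEChi AireKO, at 80.2 to 107 CPM.

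Per kilobase of annotated exon, the levels of the 39 genes spanned a wide range in control cells. In neonatal mTEChi Ctrl the highest were Plagl1 (47.7 ± 7.40 CPM per kb, SD, n = 5), Igf2r (37.1 ± 1.80 CPM per kb, SD, n = 5) and Cdkn1c (30.6 ± 9.59 CPM per kb, SD, n = 5) and the lowest was Sgce (0.234 ± 0.209 CPM per kb, SD, n = 5). In neonatal mTEClo Ctrl the highest were H19 (35.5 ± 20.3 CPM per kb, SD, n = 3), Igf2r (34.0 ± 3.28 CPM per kb, SD, n = 3) and Grb10 (31.6 ± 3.71 CPM per kb, SD, n = 3), which differed by less than the spread of H19, and the lowest was Usp29 (0.205 ± 0.0519 CPM per kb, SD, n = 3). In adult mTEChi WT, Plagl1 (56.1 ± 10.1 CPM per kb, SD, n = 7) led and Sgce (0.0992 ± 0.0415 CPM per kb, SD, n = 7) was again lowest. A mean of at least 10 CPM was reached by 27 genes in neonatal mTEChi Ctrl, 25 in mTEClo Ctrl, 27 in adult mTEChi WT and 20 in adult mTEClo WT.

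Of the 39 genes, 12 were tested and called in none of the 11 comparisons, namely Igf2r, Copg2, Mkrn3, Ube3a, Kcnq1ot1, Grb10, Zrsr1, Commd1, Impact, Nap1l5, Trappc9 and Inpp5f. Phlda2 was not tested at either age. The remaining 26 were called at least once, a count for which no share over all genes was taken. Among the uncalled genes, Igf2r (0.000826), Copg2 (0.0014), Ube3a (0.0238), Impact (0.00219) and Trappc9 (0.00888) had an adjusted p under 0.05 in mTEClo EEDcKO with a change under 2-fold.

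Genes that lie in or beside the same clusters without being members, 38 in all and 30 of them tested, gave 4 higher and 0 lower in mTEChi EEDcKO, 4 and 0 in AireEEDdKO against AireKO, and 7 and 1 in mTEClo EEDcKO, where 8.48%, 6.69% and 9.51% of all genes tested were called higher in these comparisons. Dlx5, a homeobox gene beside the Peg10/Sgce cluster, was called higher in all 3 (1.77 ± 0.33, adjusted p = 0.000311, 1.52 ± 0.37, adjusted p = 0.00576 and 2.25 ± 0.48, adjusted p = 0.00124). Kcnq1, the potassium channel gene that holds Kcnq1ot1, was higher in both mTEChi comparisons (1.03 ± 0.24, adjusted p = 0.00258 and 1.28 ± 0.33, adjusted p = 0.00932), and the lipid-transfer gene Osbpl5 in mTEChi EEDcKO (1.12 ± 0.18, adjusted p = 5.5e-05) and mTEClo EEDcKO (1.55 ± 0.20, adjusted p = 4.64e-06). Klf14, a transcription factor gene near Mest, was higher in both EEDcKO groups (2.46 ± 0.50, adjusted p = 0.000815 and 2.15 ± 0.57, adjusted p = 0.00712). Ddc (2.07 ± 0.43, adjusted p = 0.00169), the decarboxylase of dopamine synthesis, and Tnnt3 (1.38 ± 0.42, adjusted p = 0.0251), a muscle troponin, were higher without Aire. In mTEClo EEDcKO, Mrpl23 (1.12 ± 0.39, adjusted p = 0.0318), Pon3 (1.17 ± 0.29, adjusted p = 0.00398) and Slc22a2 (2.63 ± 0.79, adjusted p = 0.0146) were higher and Th (-3.61 ± 0.62, adjusted p = 0.000338), the first enzyme of dopamine synthesis, was lower.

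Of 21 genes that set or keep imprints, 0 were called higher and 1 lower in mTEChi EEDcKO, beside 8.48% and 5.4% of all genes. In AireEEDdKO against AireKO, 1 was higher and 2 were lower, beside 6.69% and 2.78%. In mTEClo EEDcKO, 0 were higher and 3 lower, beside 9.51% and 6.22%. The gene higher was Zfp57, 5.43 ± 2.24 (SD, n = 3) CPM in AireEEDdKO and 1.15 ± 0.407 (SD, n = 3) in AireKO (2.16 ± 0.57, adjusted p = 0.0109), and Hells (-1.46 ± 0.36, adjusted p = 0.00732) and Uhrf1 (-1.22 ± 0.21, adjusted p = 0.000315), which work with maintenance methylation, were lower there. Dppa3, which shields imprints in the egg, was lower in both EEDcKO groups (-1.54 ± 0.55, adjusted p = 0.0345 and -3.78 ± 1.08, adjusted p = 0.0106), and Dnmt3l (-2.02 ± 0.67, adjusted p = 0.0259) and Kdm1b (-1.26 ± 0.18, adjusted p = 2.27e-05) were lower in mTEClo. Zfp57 and Dppa3 were also called lower in mTEChi AireKO than in its control at both ages, so the Zfp57 rise started from a level lowered without Aire. Of 12 PRC2 subunit genes, the accessory subunits Epop and Phf1 were higher in mTEChi EEDcKO (1.72 ± 0.37, adjusted p = 0.00128 and 1.15 ± 0.30, adjusted p = 0.00564) and in mTEClo EEDcKO (3.14 ± 0.54, adjusted p = 0.000151 and 1.65 ± 0.31, adjusted p = 0.000311). Eed was lower in mTEChi EEDcKO (-1.001 ± 0.22, adjusted p = 0.00138). Epop was also higher in AireEEDdKO against AireKO (2.72 ± 0.54, adjusted p = 0.00115), where Aebp2 (-1.18 ± 0.15, adjusted p = 1.09e-05), Eed (-1.54 ± 0.25, adjusted p = 0.000144), Ezh2 (-1.45 ± 0.17, adjusted p = 5.68e-06) and Rbbp7 (-1.004 ± 0.15, adjusted p = 5.62e-05) were lower.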

How the data were processed

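RNA-seq counts of 47 mTEC samples were analysed, 23 adult and 24 neonatal. The authors trimmed reads with fastp 0.20.0, aligned them with STAR 2.7.3a to mm10, filtered with SAMtools 1.9 and Picard 2.21.1, and made the deposited raw counts per Ensembl gene with HTSeq 0.11.2 without strand, so overlapping genes are uncertain. The release of their annotation is not given in the sources used here. Their normalized tables were not used. A gene of the cluster neighbours is counted but not reported here by name.

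Row identifiers were matched to GRCm38 symbols (99.8% of adult and 99.4% of neonatal rows). The adult and the neonatal table were each fitted as a whole with edgeR 4.0.16 (R 4.3.3; TMM scaling, filterByExpr, quasi-likelihood test, two-sided), and p-values were adjusted by Benjamini-Hochberg over all genes tested. CPM used library totals (1578579 to 4817418 counts) scaled by TMM factors, and depth limits the precision of genes with few counts. DESeq2 1.42.0, other scalings, filters, an age term, a replicate block, a prior count of 2, a term for samples without mitochondrial counts and leaving out each sample were alternatives. The fit was tested on simulated data. The mean chi-square per gene between replicates, about 1 for sampling noise alone, came close to it in some pairs. It was 1.219 for adult mTEChi WT replicates 1 and 2 and 1.26 for neonatal mTEChi Ctrl replicates 1 and 2. In adult mTEChi AireKO it was 1.381 for replicates 1 and 2, 1.298 for 3 and 4, and 4.599 to 7.516 for the other pairs. Such close samples may not be independent, and p-values would then overstate the replication. Between neonatal mTEClo EEDcKO samples the value was 4.377 for replicates 1 and 2, 5.983 for 3 and 4, and 10 to 16.54 for the other pairs.

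The members, the gene lists (imprint regulators, PRC2 subunits, cluster neighbours, and mesenchyme, cTEC, mTEC, thymocyte, myeloid, endothelium, muscle mimetic, neuroendocrine mimetic and tuft mimetic markers) and the rule for named genes were chosen with earlier results of these data known. By that rule, values per sample were given for members called in an EED comparison or in both an Aire and a maturation comparison, and for their partners of the other allele. Same-numbered samples deviated together in 2 comparisons, AireEEDdKO against AireKO in mTEChi (correlation of deviations 0.217 to 0.313) and AireEEDdKO against Ctrl in mTEClo (0.114 to 0.294), each over 3 pairs. Their pairing comes from the replicate numbers in the sample titles. In mTEChi the same-numbered samples were of equal age (4, 6 and 4 days). In mTEClo they were not, AireEEDdKO being 4 to 6 days and Ctrl 1 to 3 days old, so these numbers give no evidence of shared litters.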

Additional observations from a re-analysis of the deposited data

Results flagged for a closer look

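Among 118 groups of 4 to 10 samples with at least 20 counts, over the 23 members described in detail, 11 held a sample whose gap to its nearest neighbour was large for the group's range, where chance flags about 1 in 20 groups. The neonatal mTEChi Ctrl samples gave 5 of these. Peg10 was at 53.2 CPM in replicate 5, Airn at 25.2 CPM and Usp29 at 1.15 CPM, the lowest value, in replicate 2, Ppp1r9a at 34.8 CPM in replicate 4, and Rasgrf1 at 41.3 CPM in replicate 1. In neonatal mTEClo EEDcKO, Sgce was at 59.8 CPM in replicate 1, and Asb4 had its lowest value, 1.0 CPM, in replicate 4. In adults, H19 was at 24.7 CPM in mTEClo WT replicate 5 and at 18.97 CPM in mTEChi AireKO replicate 3, Igf2 at 5.45 CPM in mTEClo AireKO replicate 1, and Slc22a18 at 22.8 CPM in mTEClo AireKO replicate 3.

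The effect of EED loss differed between groups for Zim1 and Asb4 by tests of the difference itself, edgeR's quasi-likelihood interaction terms. Between mTEChi with and without Aire the adjusted p was 0.0356 for Zim1 and 0.0379 for Asb4. Between mTEChi and mTEClo it was 0.000449 for Zim1 and 0.0373 for Asb4. Causes of these differences were not tested.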

How the results depend on the processing

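Calls of the 39 genes in the EED comparisons numbered 13 in mTEChi (10 to 18 under the alternatives), 12 in mTEChi without Aire (11 to 14), 18 in mTEClo (15 to 24) and 15 in mTEClo without Aire (15 to 21). Without the 2-fold minimum the calls rose to 14 (neonatal mTEChi AireKO), 21 (adult mTEChi AireKO), 10 (adult mTEClo AireKO), 26 (adult maturation) and 19 (neonatal maturation), because smaller changes then count. In adult mTEClo AireKO, 2 of 4 calls were made in the fit of the compared groups alone and 2 with the replicate block, and 2 to 5 when a sample was left out. The Aire by EED interaction gave 5 calls without the filter, 4 with DESeq2, 5 in the fit of the compared groups alone, and 0 to 2 when a sample was left out. The EED by maturation interaction gave 5 calls without the filter, 4 with DESeq2, 1 with the replicate block, and 1 to 2 when a sample was left out. The cause of these shifts was not tested. No call of a member reversed, and of 111 calls 81 held in all alternatives and left-out fits run, while 16 were lost in an alternative and 24 on leaving out a sample.

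The replicate block changed no member call in the 2 comparisons whose same-numbered samples deviated together. In mTEClo AireEEDdKO against Ctrl, same-numbered samples differed in age, so the block there need not stand for a real pairing. In the remaining comparisons the samples also share only a number. There the block gave the counts named above and otherwise stayed within 1.5 times the main count. With the block, calls of single genes not made were Igf2 (adjusted p = 0.0959), Usp29 (0.0651) and Asb4 (0.06) in mTEChi EEDcKO, Nnat in mTEClo EEDcKO (log2 0.90), H19 in neonatal mTEChi AireKO (adjusted p = 0.0804), Peg12 (0.0872) and Rasgrf1 (log2 0.90) in adult mTEClo AireKO, Zim1 (adjusted p = 0.0512) and Ppp1r9a (0.0509) in neonatal maturation, and Asb4 in the EED by maturation interaction (0.144).

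Genes with few counts, such as Asb4, Igf2, Magel2, Sgce and Zim1 without Aire, are limited by depth.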
